A study of Mus musculus with 8 samples.

Results

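The semaphorins, plexins and neuropilins are 31 mouse genes for guidance signals and their receptors. They were taken as a listed gene family: 20 semaphorin ligands (7 secreted class 3, 6 class 4, 2 class 5, 4 class 6 and 1 class 7 genes) and 11 receptor genes (9 plexins and 2 neuropilins). All 31 were found by symbol among 21883 protein-coding genes of the mm10 build. Binding of Chd7 and Chd8, a pair of related enzymes that use ATP to move nucleosomes, was mapped with chromatin immunoprecipitation followed by sequencing (ChIP-seq), in wild-type mice at postnatal day 7. The cells were sorted with magnetic beads by O4, a surface antigen of the oligodendrocyte lineage, from cortex and corpus callosum, and the sample names call them OPC, the usual short form of oligodendrocyte precursor cells. There were 2 libraries with an anti-Chd7 antibody, 1 with an anti-Chd8 antibody, 2 mocks with rabbit IgG and 3 inputs without antibody. All 8 libraries share genotype, age and sort, so they compare antibodies and not conditions of the animals.

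Semaphorins are secreted or membrane-bound proteins that bind plexins, whose intracellular domain acts on small GTPases and through them on the cytoskeleton. Most class 3 semaphorins also need a neuropilin as co-receptor, while the membrane-bound classes bind plexins directly. In the oligodendrocyte lineage Sema3a is known as a repellent and Sema3f as an attractant of migrating precursors, and Sema4d, Sema5a and Sema6a are known to be made by these cells.

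A gene end was defined as the 1 kb on both sides of either gene boundary, and a locus as the body extended by 10 kb to either side. A shared Chd7 region is a stretch where peaks of both Chd7 libraries overlapped by at least 1 bp. Chd8 lay at the ends of 13 of the 31 genes, where 41.0% of all protein-coding genes were called, and in the loci of 25, where 56.9% were called. Chd7 was shared by both libraries at the end of Sema6a alone, 1 of 31 where 4.83% of all genes were called. It was shared in the loci of Sema5b, Sema6a, Plxnc1 and Nrp2, 4 of 31 where 8.45% were called. Each of these 4 genes is longer than 100 kb. All 5 shared Chd7 regions overlapped a Chd8 peak, as did 97.1% of all shared Chd7 regions in the genome. No member had a mock peak anywhere in its locus, where 0.151% and 0.142% of all genes were called in mock 1 and mock 2. Every member had a peak of input 3, where 77.9% of all genes were called. Input 1 had peaks in 26 member loci, where 70.0% were called, and input 2 in 28, where 81.9% were called. Intervals below are 95% exact binomial (Clopper-Pearson) ranges over genes. They cover counting error only, and the files hold no read counts, so the depth is unknown.

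Sequences before 5 annotated start sites are printed because peaks of Chd7, Chd8 or both lay at these starts, in different combinations. Each is the 250 bases before the start from the RefSeq promoter table of GRCm38.p6, which is mm10, written 5′ to 3′ on the gene's strand. Capitals mark the GC box GGGCGG or its reverse complement CCGCCC, and neighbouring matches can join into a longer capital run. The internal start of Sema4b (chr7:80198338-80198587, plus strand) had a Chd7 replicate 2 peak over it, a Chd8 peak 15 bp before it and no input peak under either. The first start of Sema6c (chr3:95160170-95160419, plus strand) had a Chd8 peak over it, a Chd7 replicate 1 peak 11 bp before it and no input peak under either. The outer start of Plxnb2 (chr15:89180789-89181038, minus strand) had a Chd7 replicate 1 and a Chd8 peak on opposite sides of it. The start of Nrp2 (chr1:62703067-62703316, plus strand) had a Chd7 replicate 2 peak without Chd8. The start of Plxnb3 (chrX:73756853-73757102, plus strand) had a Chd8 peak without Chd7.
Sema4b internal start: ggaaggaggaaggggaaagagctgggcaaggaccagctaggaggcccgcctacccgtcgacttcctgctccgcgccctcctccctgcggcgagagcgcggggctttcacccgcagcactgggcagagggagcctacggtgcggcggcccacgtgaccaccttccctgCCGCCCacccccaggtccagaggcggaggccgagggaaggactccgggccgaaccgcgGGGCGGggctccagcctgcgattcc
Sema6c first start: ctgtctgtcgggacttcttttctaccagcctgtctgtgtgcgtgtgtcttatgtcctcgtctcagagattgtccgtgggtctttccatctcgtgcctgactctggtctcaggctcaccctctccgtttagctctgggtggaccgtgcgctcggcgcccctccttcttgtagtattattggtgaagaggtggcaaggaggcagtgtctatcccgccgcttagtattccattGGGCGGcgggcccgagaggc
Plxnb2 outer start: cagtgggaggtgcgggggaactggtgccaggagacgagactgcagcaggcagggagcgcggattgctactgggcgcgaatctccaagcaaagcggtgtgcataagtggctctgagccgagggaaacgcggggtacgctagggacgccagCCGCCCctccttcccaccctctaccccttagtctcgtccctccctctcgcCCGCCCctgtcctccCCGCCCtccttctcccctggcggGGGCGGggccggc
Nrp2 start: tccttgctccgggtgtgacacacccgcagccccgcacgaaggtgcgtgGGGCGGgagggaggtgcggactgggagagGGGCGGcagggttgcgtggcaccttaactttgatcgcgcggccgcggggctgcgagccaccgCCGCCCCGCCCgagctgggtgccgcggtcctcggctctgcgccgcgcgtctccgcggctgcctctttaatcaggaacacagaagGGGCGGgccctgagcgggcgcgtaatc
Plxnb3 start: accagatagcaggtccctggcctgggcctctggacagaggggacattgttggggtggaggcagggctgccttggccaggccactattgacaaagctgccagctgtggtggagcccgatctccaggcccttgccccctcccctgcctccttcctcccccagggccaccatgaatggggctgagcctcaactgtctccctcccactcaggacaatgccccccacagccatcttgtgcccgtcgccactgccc
The Nrp2 sequence held 5 GC boxes, the Plxnb2 sequence 4, the Sema4b sequence 2 and the Sema6c sequence 1. None was found in the Plxnb3 sequence. The ratio of observed to expected CpG was 0.99 for Nrp2, 0.72 for Sema6c, 0.70 for Sema4b, 0.67 for Plxnb2 and 0.12 for Plxnb3. Chd8 was thus called at starts with many and with few CpGs.

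After removal of peaks that touched a mock, 5218 and 6237 peaks were left in the Chd7 libraries, with 1383 shared regions, and 18350 peaks in the Chd8 library. The mocks contained 89 and 98 peaks, and each input between 91628 and 178478. Peak lists do not measure expression, so the labelled cell type could only be set beside occupancy at marker genes. Chd8 lay at the ends of 8 of 10 oligodendrocyte lineage markers, 1 of 3 neuron, 1 of 3 astrocyte, 1 of 3 microglia and 0 of 3 endothelial markers, where 41.0% of all genes were called. A shared Chd7 region lay at the end of 1 lineage marker, Gpr17, and of none of the other markers, where 4.83% of all genes were called. Input 3 covered the ends of 7 of the 10 lineage markers, 3 of 3 neuron, 2 of 3 astrocyte, 0 of 3 microglia and 1 of 3 endothelial markers, where 45.2% of all genes were called. Occupancy alone does not show which cells the libraries held.

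**Figure D1:**
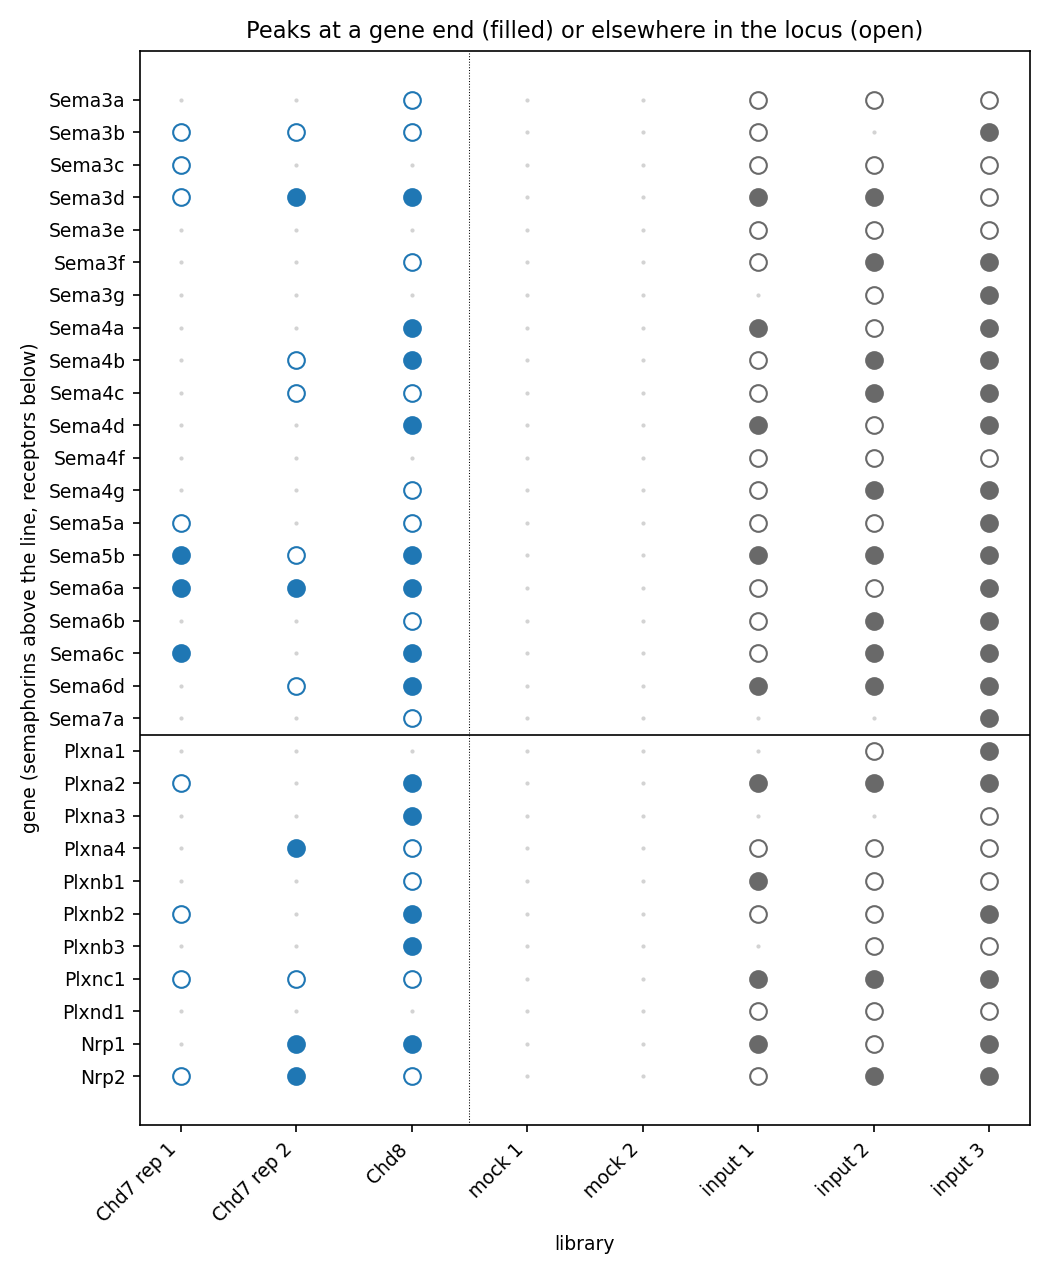
Each row is a gene and each column a library. Filled points mark a peak within 1 kb of a gene boundary, open points a peak elsewhere in the locus with 10 kb on both sides, ChIP libraries are blue and controls gray. Chd8 fills 13 rows at a gene end, both mock columns are empty, and the input 3 column has a point in all 31 rows.

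Chd8 was called at the ends of ligands and receptors in shares near that of all genes. Chd8 lay at the ends of 13 of 31 members, 41.9% (24.5 to 60.9%), where 41.0% of all protein-coding genes were called. The share was 8 of 20 for semaphorins, 40% (19.1 to 63.9%), and 5 of 11 for receptors, 45.5% (16.7 to 76.6%). The interval of either role held the value of the other and that of all genes. With a −log10 q of at least 3 required, 1 of 20 semaphorins and 0 of 11 receptors were called where 24.7% of all genes were. With peaks that touched any input removed, 2 of 20 and 2 of 11 were called where 13.1% of all genes were. The called semaphorins were Sema3d, Sema4a, Sema4b, Sema4d, Sema5b, Sema6a, Sema6c and Sema6d, and the called receptors were Plxna2, Plxna3, Plxnb2, Plxnb3 and Nrp1.

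A shared Chd7 region lay at the ends of 1 of 31 members, 3.23% (0.0816 to 16.7%), where 4.83% of all genes were called. The member was Sema6a, and the count was 1 of 20 semaphorins and 0 of 11 receptors. A count of 0 of 11 allows a share of up to 28.5%. Chd7 replicate 1 called Sema5b, Sema6a and Sema6c, 3 of 31 members, where 10.4% of all genes were called. Chd7 replicate 2 called Sema3d, Sema6a, Plxna4, Nrp1 and Nrp2, 5 of 31, where 17.0% of all genes were called. The receptors at whose ends Chd7 was found were therefore found by replicate 2 alone.

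The inputs were called at gene ends as well. Input 1 covered the ends of 9 of 31 members where 21.9% of all genes were called, and input 2 covered 12 where 28.4% were called. Input 3 covered 21 of 31, 67.7% (48.6 to 83.3%), where 45.2% of all genes were called, with 15 of 20 semaphorins and 6 of 11 receptors. More members had an input 3 peak at an end than a Chd8 peak. What part of the ChIP peaks the input signal accounts for was not tested. Mock 1 and mock 2 covered no member end, where 0.0183% and 0.0137% of all genes were called.

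At loci the Chd8 share was higher. Chd8 lay in 25 of 31 member loci, 80.6% (62.5 to 92.5%), where 56.9% of all genes were called. It lay in 16 of 20 semaphorin loci, 80% (56.3 to 94.3%), and in 9 of 11 receptor loci, 81.8% (48.2 to 97.7%). Locus calls grow with gene length, and the median member was 40.5 kb long against 17.2 kb for all genes. Among genes of up to 30 kb, Chd8 lay in 12 of 14 member loci where 50.1% of all genes of that length were called. Among genes over 100 kb it lay in 12 of 14 where 75.6% were called, and among those between it lay in 1 of 3 where 66.9% were called. Input 3 lay in 14 of 14 short members, where 70.3% of all genes of that length were called, and in 14 of 14 long ones, where 97.1% were called. Input 2 lay in 11 of 14 short members, where 75.2% were called. Chd7 replicate 2 lay in 2 of them, where 25.2% were called, and a shared Chd7 region in 0, where 7.34% were called. Chd7 replicate 1 lay in 3 of these 14 members, where 16.7% were called, and input 1 in 10, where 61.2% were called. Among short members the share was thus above that of all genes for Chd8, Chd7 replicate 1 and the inputs. It was below that of all genes for Chd7 replicate 2 and for shared Chd7 regions. With a −log10 q of at least 3 required, Chd8 lay in 9 of 20 semaphorin and 3 of 11 receptor loci where 37.5% of all genes were called. For these stronger peaks the receptor share was thus below that of all genes and the semaphorin share only a little above it. With peaks touching the matching input removed, Chd8 lay in 9 of 20 and 9 of 11, where 34.0% were called. With those touching any input removed, it lay in 9 of 20 and 8 of 11, where 29.7% were called.

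Shared Chd7 regions lay in 4 of 31 member loci, 12.9% (3.63 to 29.8%), where 8.45% of all genes were called. They lay in 2 semaphorin loci, 10% (1.23 to 31.7%), and 2 receptor loci, 18.2% (2.28 to 51.8%). All 4 were among the 14 members over 100 kb, a length at which 267 of 2428 genes were called. Chd7 replicate 1 and replicate 2 each lay in 11 member loci, 7 semaphorins and 4 receptors, where 21.4% and 29.1% of all genes were called. The intervals of ligands and receptors overlapped in each case.

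At annotated starts, which were listed for 17 semaphorins and 9 receptors, Chd8 lay within 1 kb of a start of 6 of 17 semaphorins and 6 of 9 receptors. All genes with a listed start were called at 43.6%. The semaphorin share was 35.3% (14.2 to 61.7%) and the receptor share 66.7% (29.9 to 92.5%), and the intervals overlapped. The called semaphorins were Sema3d, Sema4b, Sema4c, Sema5b, Sema6c and Sema6d, and the called receptors were Plxna2, Plxna3, Plxnb1, Plxnb2, Plxnb3 and Nrp1. No shared Chd7 region lay at a member's start, 0 of 26, where 5.23% of all genes were called. A count of 0 of 26 allows a share of up to 13.2%. Chd7 replicate 1 lay at the starts of 3 of 26 members, where 11.1% of all genes were called, and replicate 2 at 5 of 26, where 18.0% were called. Input 3 covered the starts of 10 of 17 semaphorins and 6 of 9 receptors, where 43.5% of all genes were called. Inputs 1 and 2 covered 8 and 11 of 26, where 20.3% and 25.1% were called, and the mocks covered none, where 0.0172% and 0.00572% were called.

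**Figure D2:**
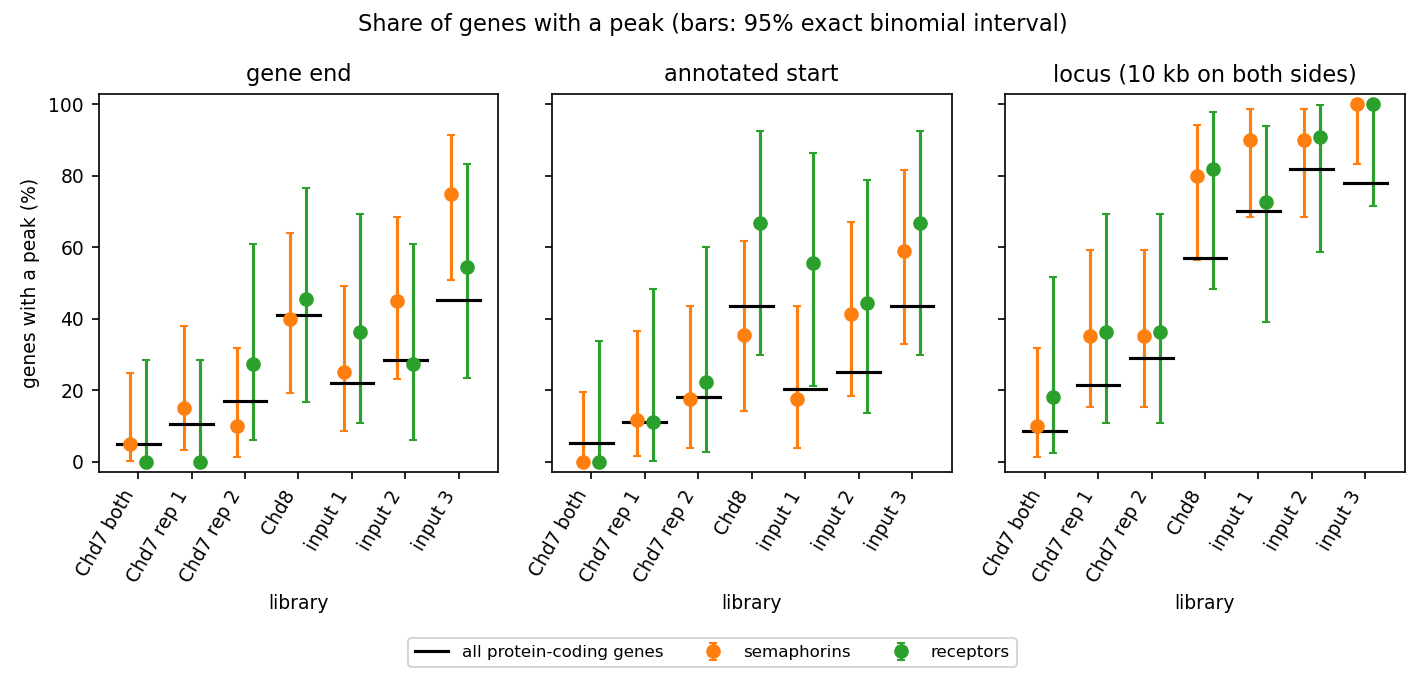
Points are the percentage of semaphorins (orange) and receptors (green) with a peak in each library or in both Chd7 libraries, with 95% exact binomial intervals, at gene ends, annotated starts and loci. Black lines are the same percentage over all protein-coding genes, 41.0% for Chd8 at gene ends and 56.9% at loci, and the intervals of ligands and receptors overlap for every library.

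The class 3 semaphorins, secreted ligands that mostly signal through neuropilin and A-type plexin complexes, had Chd8 at the ends of 1 of 7, 14.3% (0.361 to 57.9%), where 41.0% of all genes were called. Chd8 lay in the loci of 4 of 7, 57.1%, where 56.9% of all genes were called. Chd7 replicate 1 lay in 3 of 7 loci and replicate 2 in 2 of 7, where 21.4% and 29.1% of all genes were called. A shared Chd7 region lay in 0 of 7, where 8.45% of all genes were called, and this count allows a share of up to 41.0%. The Chd8 density was 0.633 peaks per 100 kb of locus, against 1.21 over the loci of all protein-coding genes. The median gene length was 155 kb in this class and 17.2 kb over all genes, and densities were not adjusted for length. Input 1 and input 2 had 45 and 63 peaks in the same loci, most of them in the long genes Sema3a and Sema3e.

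Sema3a, the class 3 ligand known to collapse axonal growth cones through Nrp1, had 2 Chd8 peaks and no Chd7 peak. The stronger, on chromosome 5 from 13399379 to 13399693, had a fold of 6.14 over the caller's background, lay 2595 bp from the annotated start and overlapped an input 3 peak. The weaker had a fold of 3.81, the lowest the Chd8 list holds, and lay 73308 bp from a start.

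Sema3d had peaks at its start and in its body. At the start, on chromosome 5, Chd8 had a fold of 4.31 and Chd7 replicate 2 a fold of 3.16, and peaks of inputs 1 and 2 lay under both. About 27 kb into the gene, Chd7 replicate 1 had a fold of 5.19 (12410066 to 12410375) and Chd8 a fold of 4.60, with no input peak under them. The replicates of Chd7 thus marked different places of Sema3d.

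Sema3f, which signals through Nrp2, had 1 Chd8 peak with a fold of 4.47, in the flank 5313 bp outside the gene and inside the neighbouring gene Gnat1, with an input 3 peak under it. Sema3b had peaks of all ChIP libraries in its flanks only. The strongest was a Chd8 peak with a fold of 5.87 that lay 9504 bp from Sema3b, at ends of the genes Hyal3 and Ifrd2, over a Chd7 replicate 2 peak and an input 3 peak. Sema3c had 1 peak of Chd7 replicate 1 in its body, with a fold of 4.71, and no Chd8. Sema3e, the ligand of Plxnd1, and Sema3g had no ChIP peak in the locus.

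The membrane-spanning semaphorins of classes 4 to 6 had Chd8 at the ends of 7 of 12 genes, 58.3% (27.7 to 84.8%), where 41.0% of all genes were called. It lay in the loci of 11 of 12, where 56.9% were called. Input 3 covered the ends of 11 of the 12, where 45.2% were called. All 3 shared Chd7 regions at ligand genes were in this group, in Sema5b and Sema6a. These are 2 of 12 loci (2.09 to 48.4%), where 8.45% of all genes were called, and the difference from class 3 was not tested. The Chd8 density of these 12 genes was 2.19 peaks per 100 kb, at a median gene length of 33.8 kb.

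Of class 4, ligands of B-type plexins among other receptors, Chd8 lay at the ends of 3 of 6, where 41.0% of all genes were called. Sema4b had Chd8 peaks at its first start, with a fold of 3.81, and beside its internal start, with a fold of 4.90. The Chd7 replicate 2 peak over the internal start had a fold of 3.07, and neither start had an input peak under the ChIP peak. The third Chd8 peak in the locus, with a fold of 4.10, lay 6197 bp outside the gene at ends of Cib1 and Gdpgp1. The distant peak touched input 3, and peaks of inputs 2 and 3 also lay at an end of Sema4b, with folds of 3.64 and 3.90, without overlapping its ChIP peaks.

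Sema4c, a ligand of Plxnb2, had a Chd7 replicate 2 peak 2066 bp wide with a fold of 3.66 over its starts, and a Chd8 peak 1444 bp wide with a fold of 4.87. Peaks of inputs 2 and 3 lay under both. These starts are inside the gene boundaries by more than 1 kb, so Sema4c counted at annotated starts and not at gene ends. A further Chd8 peak 1089 bp outside the gene, at an end of Ankrd39, had a fold of 4.35.

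Sema4d, a ligand of Plxnb1 made by oligodendrocytes, had 3 Chd8 peaks and no Chd7 peak. The one at its gene end had a fold of 4.08 and lay over peaks of inputs 1 and 3, 36106 bp from the nearest listed start. The body peaks had folds of 4.15 and 4.69 with no input peak under them. The Chd8 peak of Sema4a had a fold of 4.05 and lay 859 bp inside a gene boundary. The peak was 18606 bp from the nearest listed start, so it marks the far end of the gene. It was the called Chd8 end peak nearest to the 1 kb limit on the inside, while the peak near Sema4c at 1089 bp and one in Sema5a at 1197 bp were nearest on the outside. Sema4g had a single Chd8 peak, with a fold of 4.53, at ends of Mrpl43 and Twnk, and Sema4f had no ChIP peak.

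Sema5b, a membrane-bound ligand known to repel neurites, had the most Chd8 peaks of any member, 9. The 2 at its end on chromosome 16 had folds of 5.83 (35540450 to 35541570) and 5.19, and Chd7 replicate 1 had a fold of 5.21 over the start. Peaks of all 3 inputs lay under them. Sema5b was the 1 member whose highest Chd8 fold at a gene end was above the median of all genes called there.

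The shared Chd7 region of Sema5b (NCBI gene 20357) lay in the gene body on chromosome 16 from 35603382 to 35604259, about 62.7 kb from the lower gene boundary. Its folds were 4.36 in replicate 1 and 3.27 in replicate 2, and the Chd8 peak over it had a fold of 5.00. No input peak touched it. The body also held Chd8 peaks with folds of 6.18 and 6.09, both over input 3 peaks. Sema5b thus had a start covered by peaks of all inputs and a shared region that no input peak touched.

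Sema5a, a ligand of Plxnb3 known in the oligodendrocyte lineage of the optic nerve, held the strongest Chd8 peak of the family. It lay on chromosome 15 from 32610947 to 32611689, deep in the gene body of Sema5a (NCBI gene 20356) at 366134 bp from the start. Its fold was 9.11 and its −log10 q was 11.2, rank 135 of 18350 in the Chd8 list. A Chd7 replicate 1 peak with a fold of 4.81 lay under it, no Chd7 replicate 2 peak did, and no input peak touched it. Near the start, Chd8 peaks with folds of 4.77 and 4.29 lay 1197 and 3011 bp away, outside the 1 kb window.

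Sema6a, a transmembrane ligand of Plxna2 and Plxna4, was the only member with a shared Chd7 region at a gene end. Sema6a (NCBI gene 20358) runs on chromosome 18 from 47245254 to 47371200. The end region, from 47370217 to 47370481, lay 719 bp inside the upper boundary. Its folds were 4.90 in Chd7 replicate 1 and 3.51 in replicate 2, and the Chd8 peak over it had a fold of 4.55.

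A second shared region in Sema6a, from 47368451 to 47369171, had Chd7 folds of 4.15 and 4.26, and the Chd8 peak there had a fold of 5.97. The replicate 1 fold of 4.15 was the lowest in its list. Input 3 peaks touched both regions, and inputs 1 and 2 did not. Replicate 1 peaks of 165 and 176 bp met replicate 2 peaks of 683 and 129 bp there. With a reciprocal overlap of 50% required, neither remained a shared region, nor did those of Sema5b, Plxnc1 and Nrp2. Of all 1383 shared regions, 545 remained. Sema6a also had Chd7 replicate 1 and Chd8 peaks together at about 11 kb and 25 kb from its lower boundary, where Chd8 folds were 5.71 and 5.10 and no input peak lay. In all it had 5 peaks of Chd7 replicate 1, 2 of replicate 2 and 7 of Chd8.

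Sema6c had a Chd7 replicate 1 peak with a fold of 4.15 and a Chd8 peak with a fold of 4.10 at its first start, and no input peak under either. That Chd7 fold was the lowest in the replicate 1 list. Sema6d, a ligand of Plxna1, had 7 Chd8 peaks along 578 kb. The end peak had a fold of 4.00 over peaks of all 3 inputs. In the body, 72.5 kb from the lower boundary, Chd7 replicate 2 with a fold of 3.13 and Chd8 with a fold of 4.67 coincided without input. Sema6b and Sema7a, the class 7 ligand anchored in the membrane by a lipid, had 1 Chd8 peak each, with folds of 4.30 and 4.42, away from gene ends and over input 3 peaks.

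Among receptors, the A-type plexins, which pair with neuropilins for class 3 ligands and bind class 6 ligands directly, had Chd8 at the ends of 2 of 4 and in the loci of 3 of 4, where 41.0% and 56.9% of all genes were called. Plxna2 had a Chd8 peak with a fold of 4.25 at its start on chromosome 1, over peaks of all 3 inputs. In its body Chd7 replicate 1 and Chd8 coincided at 2 places without input. The first, from 194629292 to 194629601, had a Chd8 fold of 4.67 and a Chd7 fold of 4.42, and the second, from 194742904 to 194743440, had a Chd8 fold of 5.19 and a Chd7 fold of 4.64. Chd7 replicate 2 had no peak in Plxna2.

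Plxna4, a receptor for Sema3a and Sema6a, had a Chd7 replicate 2 peak at its gene end, on chromosome 6 from 32587042 to 32587378, with a fold of 3.56. Neither Chd8 nor any input had a peak there. Its 3 Chd8 peaks, with folds of 4.61, 4.36 and 3.88, were all in the gene body. Plxna3 had a Chd8 peak with the lowest listed fold, 3.81, at its end, and a stronger one with a fold of 4.71 in the flank at an end of Lage3, both without input. Plxna1 had no ChIP peak in its locus.

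The B-type plexins, receptors of class 4 ligands, had Chd8 in all 3 loci and at the ends of 2, where 56.9% and 41.0% of all genes were called. Their density of 4.67 Chd8 peaks per 100 kb rested on 6 peaks in 128 kb, and input 3 had 23 peaks there. The median length of these genes was 26.1 kb, and the density was not adjusted for length. Plxnb3, known to be made by oligodendrocytes, had 1 Chd8 peak, with a fold of 3.93, over its start on the X chromosome and no input peak under it. Plxnb2 had a Chd8 peak with a fold of 3.96 upstream of its outer start and a Chd7 replicate 1 peak with a fold of 4.38 just inside it. These peaks did not overlap each other, both touched input 3, and the Chd8 peak lay at an end of Dennd6b. A further Chd8 peak, with a fold of 4.53 and no input peak under it, lay 565 bp from the inner start of Plxnb2. Plxnb1 had 3 Chd8 peaks with folds of 3.94, 4.36 and 4.04. The first covered the annotated start, and the others lay 649 and 2445 bp from it.

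Plxnc1, the receptor of Sema7a, held the shared Chd7 region with the highest mean fold of the 5 regions, 4.41. In Plxnc1 (NCBI gene 54712) it lay on chromosome 10 from 94829302 to 94829937, in the gene body and 114908 bp from the start. Its folds were 5.46 in Chd7 replicate 1 and 3.36 in replicate 2, and the Chd8 peak over it had a fold of 6.82. No input peak touched it, and it was the single peak of each ChIP library in the locus. With a reciprocal overlap of 50% or a −log10 q of at least 3 required, it did not remain a shared region. Of all 1383 shared regions, 545 remained under the first rule and 45 under the second. Plxnd1, the receptor of Sema3e, had no ChIP peak.

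The neuropilins both had peaks, in different places. Nrp1, the co-receptor of Sema3a that also binds VEGF, had 2 Chd8 peaks at its start on chromosome 8 with folds of 4.58 and 4.49. A Chd7 replicate 2 peak with a fold of 3.12 lay under the second. Input 1 lay under both Chd8 peaks and input 3 under the first.

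Nrp2, the co-receptor of Sema3f, had a Chd7 replicate 2 peak over its start with a fold of 3.80, over peaks of inputs 2 and 3, and no Chd8 peak there. Its shared Chd7 region, in Nrp2 (NCBI gene 18187) on chromosome 1 from 62743298 to 62743797, lay 39981 bp inside the gene. The folds were 4.87 and 3.41 for Chd7 and 4.23 for Chd8, and input 3 touched it. The other Chd8 peaks of Nrp2 were in the body, with folds between 3.81 and 4.38 and no input peak under them.

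**Figure D3:**
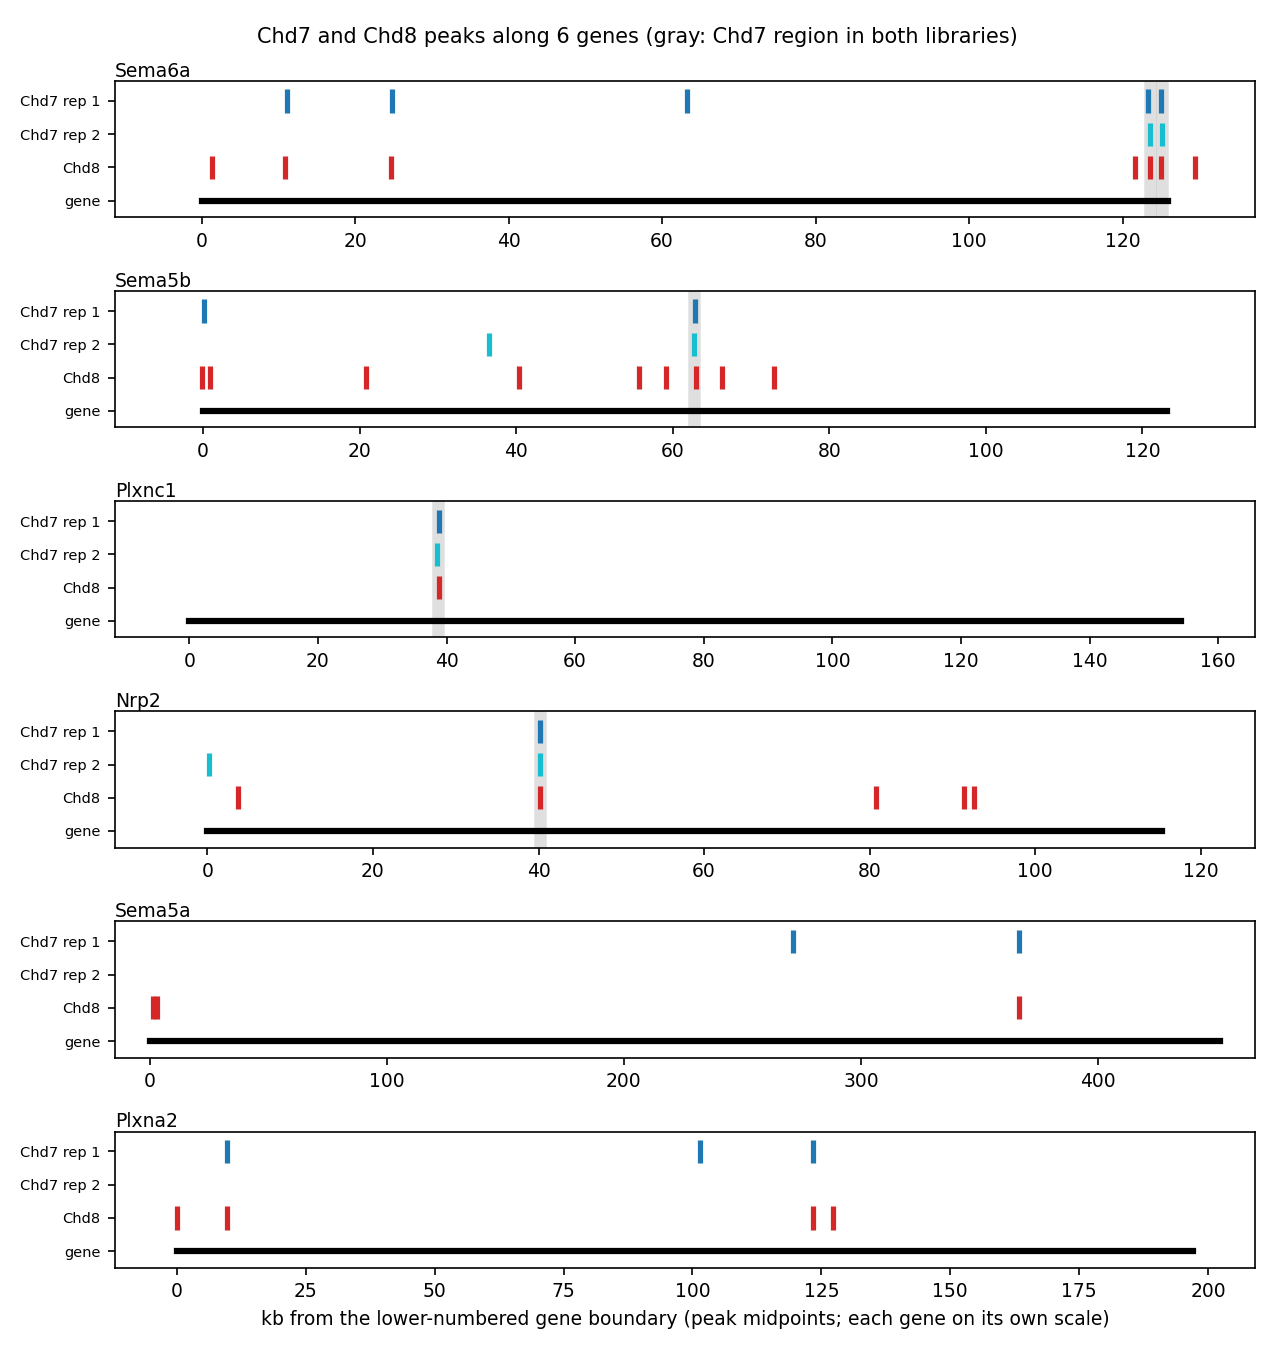
Peak midpoints of each ChIP library along 6 genes, in kb from the lower-numbered gene boundary, with a row for each library and the gene as a black bar. Gray bands mark the 5 shared Chd7 regions, which lie in Sema6a, Sema5b, Plxnc1 and Nrp2. Each has a Chd8 peak, as do 97.1% of all shared Chd7 regions. Sema5a and Plxna2 have Chd7 replicate 1 peaks with Chd8 and no replicate 2 peak.

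Over the family as a whole, ChIP peaks lay mostly in gene bodies. Of 71 Chd8 peaks in member loci, 16 lay at a gene end, 45 elsewhere in the body and 10 in a flank. The 48 peaks at ligand genes divided into 10, 29 and 9, and the 23 at receptor genes into 6, 16 and 1. Of the 71, 6 lay at an end of another gene. These divisions were not made over all genes, and ends, bodies and flanks differ in size, so the counts show no family trait. Member loci held 19 Chd7 replicate 1 peaks, of which 14 overlapped Chd8, 73.7% against 78.8% of the whole list. They held 16 Chd7 replicate 2 peaks, of which 11 overlapped Chd8, 68.8% against 62.2%. Conversely 28.2% of the Chd8 peaks overlapped a peak of either Chd7 library, against 35.4% of the whole Chd8 list.

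Overlap with inputs was counted for each ChIP library. Of the Chd8 peaks at member genes, 47.9% touched a peak of any input, against 46.3% of the whole list. The share was 56.3% at ligand genes and 30.4% at receptor genes, and 37 of the 71 peaks touched no input. For Chd7 replicate 1 it was 15.8% at member genes against 38.8% of its list, and for Chd7 replicate 2 it was 62.5% against 62.2%. At ligand and receptor genes it was 15.4% and 16.7% for Chd7 replicate 1, and 60% and 66.7% for replicate 2, so the order seen for Chd8 was not seen for Chd7. Peaks of 1 gene share its sequence and are not independent, so no test was made of these shares.

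Chd8 peak density was 1.57 per 100 kb over member loci, 1.56 at ligands and 1.59 at receptors, against 1.21 over all protein-coding genes. Longer members did not simply have more Chd8 peaks. Across the 31 genes Spearman's rank correlation of length and number of peaks was 0.28 for Chd8 and 0.25 for input 3, and 0.62 and 0.61 for inputs 1 and 2. These are descriptions over genes that share the same libraries.

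The Chd8 peaks at member ends had low folds. The highest fold at the end had a median of 4.08 over the 13 called members, against 4.85 over the 8963 genes called genome-wide, with quartiles at 4.32 and 5.60. Of the 13, 12 were at or below that median, and Sema5b with 5.83 was above it. The next highest were Nrp1 with 4.58, Sema6a with 4.55, Sema3d with 4.31 and Plxna2 with 4.25. The median was 4.09 for ligands and 3.96 for receptors. Away from the ends the family reached higher, as in Sema5a with 9.11 and Plxnc1 with 6.82.

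**Figure D4:**
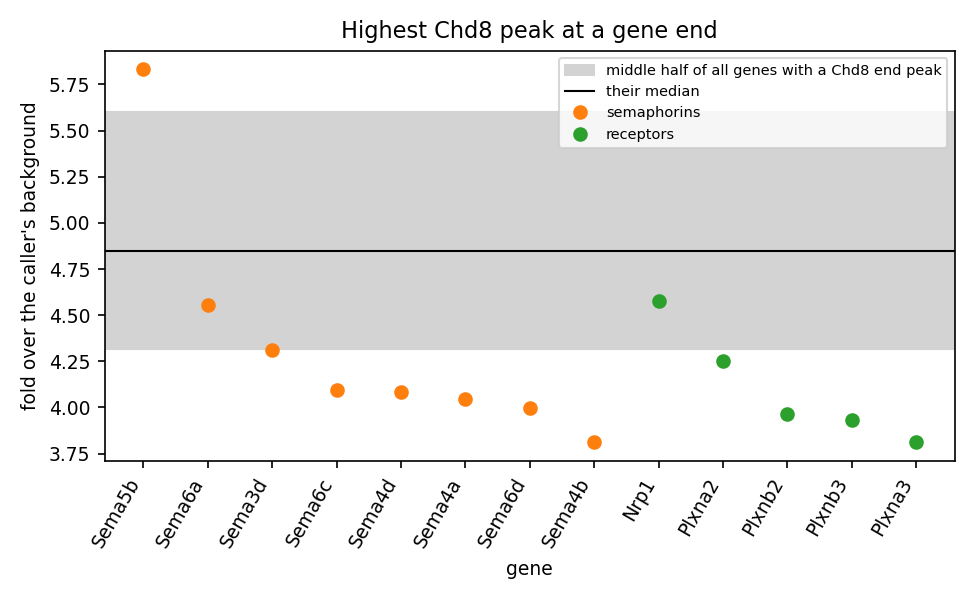
The top Chd8 end peak of each called member, as fold over the caller's background on an axis that does not start at 0, with semaphorins in orange and receptors in green. The gray band and line are the quartiles (4.32 and 5.60) and median (4.85) over 8963 genes, and Sema5b is the only point above the line.

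Chd8 peaks near starts went with CpG-rich sequence over all starts, and among members the semaphorins showed that order. For receptors the order depended on how near to the start the Chd8 peak had to lie. Over all 21262 starts the ratio of observed to expected CpG in the 250 bases before the start had a median of 0.77 where Chd8 lay within 1 kb and 0.27 where it did not. Over the 37 starts of 26 members it was 0.64 for the 15 with Chd8 and 0.41 for the 22 without. For semaphorins it was 0.67 with Chd8 (8 starts) and 0.31 without (19 starts), and for receptors 0.52 with Chd8 (7 starts) and 0.75 without (3 starts). With a Chd8 peak required over the 250 bases themselves, receptors had 0.71 with Chd8 (4 starts) and 0.59 without (6 starts). By that rule semaphorins had 0.70 (5 starts) and 0.41 (22 starts), and all starts 0.78 and 0.31. Starts without Chd8 included Sema3c with a ratio of 1.02 and Nrp2 with 0.99, and the Plxnb3 start with Chd8 had 0.12. The GC box, searched on both strands as GGGCGG, was found before 27 of the 37 member starts, 73.0%, against 42.6% of all starts. Among member starts it was found before 12 of the 15 with Chd8 and 15 of the 22 without. Over all starts it was found before 60.7% of those with Chd8 and 29.4% of those without. With a Chd8 peak required over the 250 bases, members showed the reverse order. The box was found before 6 of 9 member starts with such a peak and 21 of 28 without. Over all starts these shares were 60.3% and 33.5%. The median share of G and C in the 250 bases was 64% for member starts and 55.6% for all starts. Motif shares were not adjusted for this difference.

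Of the other motifs, ACAATG was found before a larger share of member starts than of all starts, and the rest before a smaller one. The E-box CANNTG was found before 51.4% of member starts against 62.8% of all, and its form CACGTG, which is also a CANNTG match, before 5.41% against 6.63%. The ETS core CCGGAA was found before 10.8% against 15.0%, and CCAAT before 18.9% against 35.4%. The Sox core forms ACAAAG and ACAATG were each found before 13.5%, against 14.9% and 9.35%. Matches are letters in a window and were not tested as binding sites. Starts of 1 gene can share bases.

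**Figure D5:**
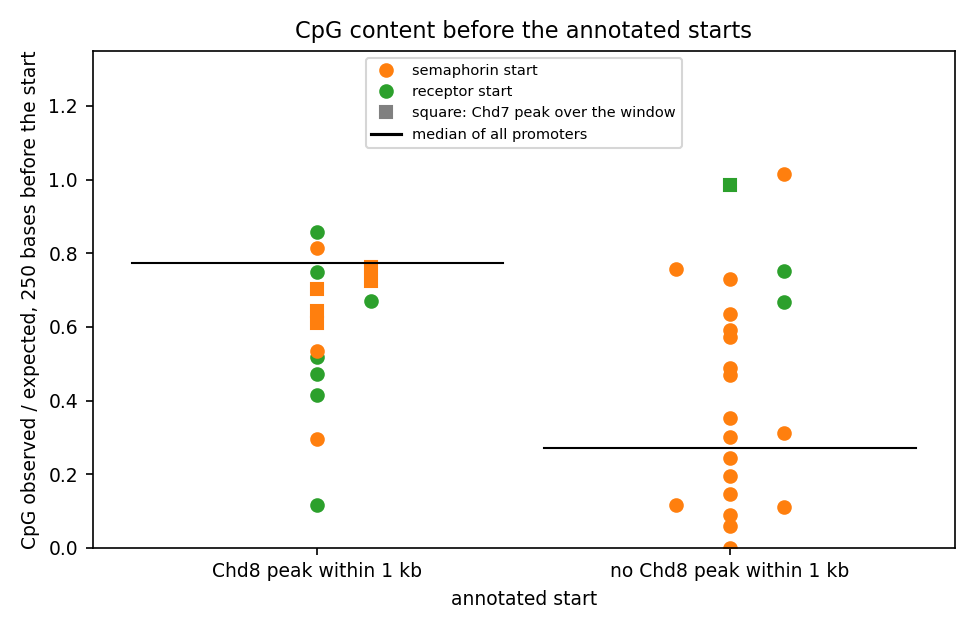
Ratio of observed to expected CpG in the 250 bases before each of 37 member starts, split by whether a Chd8 peak lay within 1 kb (15 starts) or not (22 starts). Points are starts, coloured by role, squares have a Chd7 peak over the 250 bases, and lines are the medians over all genes (0.77 with Chd8 and 0.27 without).

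The proteins that pass semaphorin signals on include kinases, GTPases and their regulators, and adhesion molecules. Of 48 such listed partners, 6 had a shared Chd7 region at a gene end, 12.5% (4.73 to 25.2%), where 4.83% of all genes were called. They were Gsk3b, a kinase that acts on collapsin response mediator proteins, Arhgap35, a GTPase-activating protein, Itgb1, an integrin subunit, Limk1, the kinase of cofilin, Cfl1, cofilin itself, and Fyn, a Src-family kinase with a known part in myelination. Their mean Chd7 folds were 4.44, 4.25, 4.24, 4.10, 4.09 and 3.90, in that order. Each of the 6 also had a Chd8 peak at an end, and 97.1% of all shared Chd7 regions overlapped a Chd8 peak. Chd8 lay at the ends of 25 of the 48, 52.1% (37.2 to 66.7%), where 41.0% of all genes were called. Input 3 covered the ends of 31, where 45.2% were called, and all 6 partners with a shared Chd7 region were among them. The difference between partners and the 31 members was not tested.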

How the data were processed

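ChIP-seq was measured in 8 libraries, grouped by their titles as Chd7 ChIP (2), Chd8 ChIP (1), mock (2, the second assigned by the labels to Chd7 replicate 2 and Chd8) and input (3). The sources used here do not say whether replicates came from separate animals. The labels name the antibodies, while the extraction notes name the O4 antibody for isolating the complexes. Track names inside the files of Chd7 replicate 2 and Chd8 carry other numbers than the titles, by which inputs 2 and 3 would exchange places. The titles were used, and the exchange was an alternative.

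The authors deposited broad peak lists on mm10. Per the submitters' processing notes, the tools included MACS, Bowtie2, Picard and SAMtools, with versions and settings not given in the sources used here. Likewise the control used for calling is unknown. Per the deposited files, each peak has a score, a fold (a ratio over the caller's local background), and the −log10 p and −log10 q of the authors' caller. Fold is the authors' value and depends on depth and control, so levels were not compared between libraries. Depth is unknown, and the precision of shares rests on the number of genes.

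ChIP peaks that shared at least 1 bp with a mock peak were left out. Shared Chd7 regions are merged spans of overlapping peaks of both libraries, with the mean of both top folds. Genes and starts came from RefSeq tables of GRCm38.p6, with gene boundaries and no exons. Starts were listed for 26 of 31 members and for 17491 genes. Overlaps were computed in Python 3.11.15 with pandas 2.3.3, numpy 2.4.6 and scipy 1.17.1, figures with matplotlib 3.10.9, and the overlap code was checked on simulated data. No test was run across genes, since Chd8 has 1 library and members are not replicates. Counts are given with Clopper-Pearson intervals beside the share of all protein-coding genes.

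The members and lists were chosen with earlier results of these data known. All members are accounted for. Described in detail are those with a shared Chd7 region, those with a peak of 1 Chd7 library at an end, the 8 with the highest Chd8 fold at an end, and Sema3a, Sema3f, Sema4d, Sema5a, Sema6a, Nrp1, Nrp2, Plxna4 and Plxnb3. Other members, such as Sema4b, Sema4c and Sema3b, were named after their values were seen. From the signalling partners, those with a shared Chd7 region at an end are named. Alternatives were mock-touching peaks kept, peaks touching the matching or any input removed, a −log10 q of at least 3, each Chd7 library by itself, a reciprocal overlap of 50%, a gene-end window of 5 kb, annotated starts only and loci without flanks.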

Additional observations from a re-analysis of the deposited data

How the results depend on the processing

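No paired analysis was possible because Chd8 has 1 library, and no test gave the counts. The counts rest on few genes, and 32 of the recomputed counts stayed within 1.5 times the reported one while 32 did not. Part of this tally was fixed beforehand. A count of 0, as for shared Chd7 at receptor ends, cannot change when peaks are only removed. Using 1 Chd7 library in place of both leaves more peaks to count. The tally is therefore no measure of stability. Shared Chd7 regions lay at the ends of 1 of 20 semaphorins, and at 0 with peaks touching the matching input removed after exchange of inputs 2 and 3, with those touching any input removed, with a −log10 q of at least 3, with a reciprocal overlap of 50%, and at 0 of 17 at annotated starts. With 1 Chd7 library left out, the count was 2 to 3 for semaphorins, and 0 to 3 for receptors against 0. In loci, the 2 semaphorins and 2 receptors became 1 and 1 under the exchange and with any input removed. They became 0 and 0 with the −log10 q limit and the reciprocal overlap, and 7 and 4 with either Chd7 library left out. Over all genes the shared Chd7 share at ends was 4.83%. It was 0.759% under the exchange, 0.539% with any input removed, 0.0685% with the −log10 q limit and 1.72% with the reciprocal overlap. At loci it was 8.45%, and 1.97%, 1.57%, 0.192% and 3.37% in that order. Of 1383 shared regions, 404, 339, 45 and 545 were left. Leaving out replicate 1 or 2 gave 17.0% and 10.4% at ends, and 29.1% and 21.4% at loci. Chd8 at the ends of semaphorins, 8 of 20, became 3 with matching input removed, 5 under the exchange, 2 with any input removed, 1 with the −log10 q limit and 13 with a window of 5 kb. At receptors 5 of 11 became 3 with matching input removed, 2 with any input removed and 0 with the −log10 q limit. In loci the 16 semaphorins became 9 with matching input removed, 9 with any input removed and 9 with the −log10 q limit. The 9 receptors of 11 stayed at 9 with matching input removed, and became 8 with any input removed and 3 with the −log10 q limit. Over all genes these locus shares were 34.0%, 29.7% and 37.5%, against 56.9%. Over all genes the Chd8 share at ends was 41.0%, and 16.7% with matching input removed, 29.1% under the exchange, 13.1% with any input removed, 24.7% with the −log10 q limit and 49.0% with 5 kb. The removals leave fewer peaks by construction, from 18350 to 10952, 15071, 9858 and 7849. Keeping mock-touching peaks changed none of the 8 counts.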

Other observations

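Other guidance families had Chd8 at gene ends in shares between 14.3% and 54.5%, where 41.0% of all genes were called, a value that the intervals of all 3 families hold. Among 22 Eph receptors and ephrins, Chd8 lay at the ends of 12, 54.5% (32.2 to 75.6%), and a shared Chd7 region lay at the end of 1, Ephb3, with a mean fold of 4.51, where 4.83% of all genes were called. The highest Chd8 folds in that family were 5.89 at Efna2, an ephrin ligand, and 5.28 at Epha7, a receptor. Among 13 netrins and netrin receptors, Chd8 lay at the ends of 7, 53.8% (25.1 to 80.8%), with a fold of 5.19 at Neo1 and 5.10 at Unc5a, and a shared Chd7 region at 1, Dscam, with a mean fold of 4.32 and a Chd8 fold of 5.57. Among 7 Slits and Robos, Chd8 lay at the end of 1 (0.361 to 57.9%), Robo1, with a fold of 4.23. All 7 loci held a Chd8 peak, where 56.9% of all loci did. A shared Chd7 region lay in 0 of 7 loci (up to 41.0%), where 8.45% of all genes were called. Input 3 covered the ends of 15, 6 and 1 genes of these families, where 45.2% of all genes were called. Genes named here were chosen after their values were seen, and differences between families were not tested.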
